A study of Mus musculus with 8 samples.

Results

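The neuro-intermediate lobe of mice that carried both ACreb3l2 and AXBP1 was compared with that of mice that carried AXBP1 alone. By their labels the 2 groups differ in the ACreb3l2 transgene, and both carried AXBP1. The comparison rests on 4 of the 8 libraries of the series, 2 per group, and on 15580 tested genes of the 48526 listed. All 8 libraries were fitted together, so its p-values also use the spread within the other groups. All mice were C57B6 males of 3 months, and each library was made from a pool of 5 lobes. Per the labels the RNA was depleted of ribosomal RNA, while the study's methods name a preparation guide for mRNA, and the sources used here do not settle which applies. The AXBP1 mice expressed an acidic dominant negative form of XBP1 from the rat POMC promoter, and the ACreb3l2/AXBP1 double transgenic mice expressed that and a like form of Creb3l2. WT mice carried no transgene and ACreb3l2 mice the Creb3l2 form alone, with 2 libraries each. The study derived 2 lines per transgene and showed data of 1, and the promoter limits the block to POMC cells. Nothing states whether the 2 pools of a group came from separate litters, so p-values measure the spread between these pools.

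Creb3l2 and XBP1 are basic leucine zipper transcription factors of the secretory pathway. Creb3l2 is held in the membrane of the endoplasmic reticulum (ER) and is freed by proteolysis, after which it enters the nucleus, and it is known for driving genes of COPII transport in cells that secrete large cargo. XBP1 becomes active when the ER stress sensor IRE1 splices its mRNA, and it is known for driving ER expansion in professional secretory cells. Melanotropes, the endocrine cells of the intermediate lobe, are such cells and make the hormone precursor POMC in very large amounts.

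Library totals ran from 28256086 to 37988912 counts over the series. The labels give melanotropes as the cell type, but the tissue was whole lobe. Pomc had 3161000 and 3725000 normalized counts (counts scaled to a common library size, rounded to 4 digits) in the AXBP1 libraries and 2762000 and 2047000 in the ACreb3l2/AXBP1 libraries and had the most counts of all genes tested. Markers of other cells were present too, and Slc1a3, a glutamate transporter of glia, had from 8272 to 9902. Creb3l2 itself had 18810 and 22800 normalized counts in AXBP1 and 21180 and 14020 in ACreb3l2/AXBP1, and Xbp1 had 12430 and 13830 against 17610 and 12840, so that the groups overlapped in both genes. Neither was called (log2 changes of -0.24 and 0.21, edgeR adjusted p = 0.651 and 0.613). Of the 4 genes of the CREB3 family tested none was called by edgeR in the main fit, 1 had an unadjusted p under 0.05 and DESeq2 called 1. Without the filter on low counts edgeR called 1. Creb3, with the most counts after Creb3l2, had 3035 and 3053 against 2431 and 2084 (log2 change -0.43, edgeR adjusted p = 0.145), and 20.8% of its exon length overlaps genes on the opposite strand. How reads of the transgenes were counted is not given in the sources used here, so these totals do not check the labels.

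With ACreb3l2 added to AXBP1, 20 of 94 tested genes for the vesicle coats, receptors, tethers and SNAREs that move cargo between the ER and the Golgi fell. A gene is said to be called at an adjusted p under 0.05 in edgeR's quasi-likelihood test, with Benjamini-Hochberg adjustment over all genes tested. By this rule 97 genes (0.623% of those tested) changed, of which 96 fell (0.616%) and 1 rose (0.00642%). Among the 96 genes the median log2 change was -0.74, from -3.67 to -0.42, and 22 fell at least to a log2 change of -1. Their libraries did not overlap between groups in any case, which was true in the same direction of 24.0% of all genes tested. The 96 genes had a median mean normalized count of 2218, beside 741 over all genes tested. Shares set beside all genes tested are thus not matched for counts. In bulk tissue a lower level in each cell and fewer of the cells that hold the mRNA cannot be told apart, and counts are relative to the library's total.

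**Figure D1:**
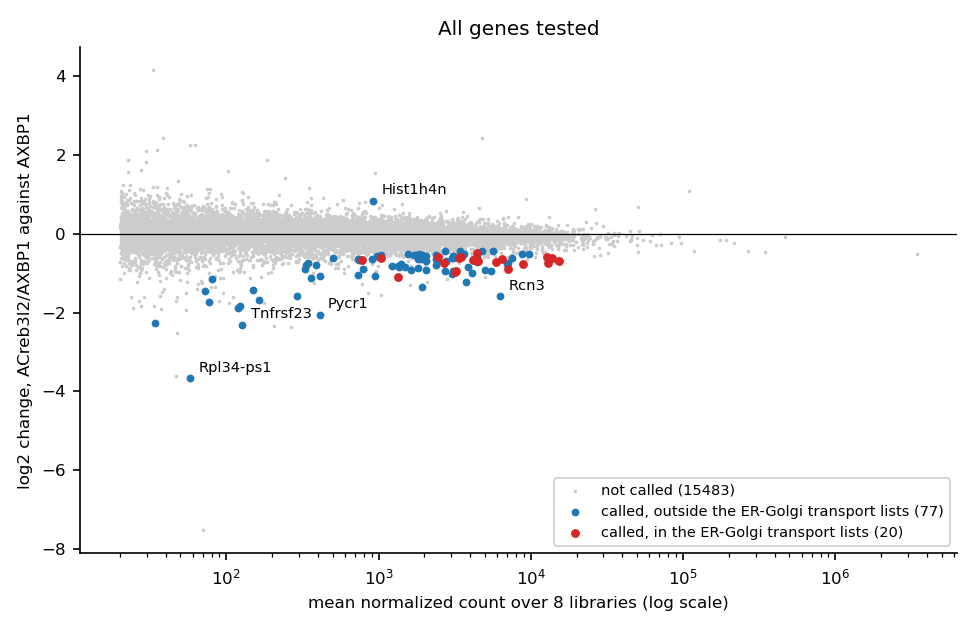
Log2 change in ACreb3l2/AXBP1 against AXBP1 (vertical axis) by mean normalized count over 8 libraries (horizontal axis, log scale), 1 point per gene tested. The 97 called genes are coloured, 20 of them red as members of the ER-Golgi transport lists, and 96 of the 97 lie below 0.

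The number of calls rested on single libraries. With 1 library left out, 7 genes were called without AXBP1 replicate 1, 7 without AXBP1 replicate 2 and 11 without ACreb3l2/AXBP1 replicate 2, all of them lower, against 127 without ACreb3l2/AXBP1 replicate 1. In each of these fits the lone library of a group is assumed to vary like the others.

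COPII vesicles carry new proteins out of the ER. Their coat has the small GTPase Sar1, an inner layer of Sec23 and Sec24, which binds cargo, and an outer cage of Sec13 and Sec31. Of 19 genes tested for the coat and the ER exit sites 6 fell and none rose, and the median log2 change over the list was -0.40, beside -0.00 over all genes tested. Sec24d (chr3:123267455-123365641, plus strand, positions here being those of GENCODE M21 on mm10), a cargo-binding subunit, had 3966 and 3826 normalized counts in AXBP1 and 2180 and 1807 in ACreb3l2/AXBP1. Its level was thus 1.96-fold lower (log2 change -0.97, SE 0.112, edgeR adjusted p = 0.00566). Its paralog Sec24a fell from 926 and 918 to 594 and 582 normalized counts (log2 change -0.65, SE 0.120, edgeR adjusted p = 0.0470).

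The outer cage and the GTPase moved the same way. Sec31a had 10930 and 10770 normalized counts in AXBP1 and 6953 and 5834 in ACreb3l2/AXBP1 (log2 change -0.76, SE 0.109, edgeR adjusted p = 0.0151). Sec13 went from 4957 and 4809 to 3444 and 2710 (log2 change -0.67, edgeR adjusted p = 0.0317). Sar1a (chr10:61680299-61693297, plus strand), the most counted called gene of the list, went from 14580 and 14830 to 10240 and 9211 (log2 change -0.60, SE 0.0856, edgeR adjusted p = 0.0151). The sixth gene was Sec23ip, which binds Sec23 at exit sites, at 3905 and 4106 against 2838 and 2523 (log2 change -0.58, edgeR adjusted p = 0.0213). Sec23a, the inner coat subunit, had 4029 and 4023 against 2897 and 3095, and with a log2 change of -0.43 it missed the threshold (edgeR adjusted p = 0.0587). In 16 of the 19 genes both ACreb3l2/AXBP1 libraries were below both AXBP1 libraries, as in 24.0% of all genes tested.

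COPI vesicles return proteins from the Golgi to the ER, on membranes marked by ARF GTPases. Of 20 genes tested for this coat and the ARF cycle 6 fell and none rose, with a median log2 change of -0.44. Copz2 (chr11:96849870-96861203, plus strand), a variant zeta subunit of the coat, had 1741 and 1671 normalized counts in AXBP1 and 823 and 782 in ACreb3l2/AXBP1, which is 2.13-fold lower (log2 change -1.09, SE 0.129, edgeR adjusted p = 0.00657). The beta prime subunit Copb2 had the most counts of the coat genes called, at 18280 and 17780 against 12280 and 10130 (log2 change -0.69, edgeR adjusted p = 0.0258). The gamma subunit Copg1 went from 15810 and 15500 to 11150 and 9312 (log2 change -0.61, edgeR adjusted p = 0.0443).

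Of the genes of the ARF cycle 3 were called. Arfgap1, which makes ARF hydrolyse its GTP, had 4151 and 4004 normalized counts in AXBP1 and 2320 and 1920 in ACreb3l2/AXBP1, 1.92-fold lower (log2 change -0.94, SE 0.118, edgeR adjusted p = 0.00771). Arfgap3, another such enzyme, went from 3123 and 3034 to 1935 and 1752 (log2 change -0.74, edgeR adjusted p = 0.0370). Among the ARF GTPases Arf4 fell, from 4905 and 4880 to 3491 and 3548 (log2 change -0.47, SE 0.0808, edgeR adjusted p = 0.0327). Exons of Arf4 overlap genes on the opposite strand over 17.7% of their length, and whether reads were counted by strand is not stated.

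Receptors recognise the cargo of both vesicle types, and 2 of 13 fell. Kdelr2 (chr5:143403838-143421901, plus strand), a receptor that brings escaped ER proteins back, had 8705 and 8592 normalized counts in AXBP1 and 5029 and 4261 in ACreb3l2/AXBP1 (log2 change -0.90, SE 0.108, edgeR adjusted p = 0.00657). Surf4, a cargo receptor for export, went from 14880 and 14770 to 9844 and 7819 (log2 change -0.75, SE 0.124, edgeR adjusted p = 0.0306). The list median was -0.10, and 4 of the 13 receptors had positive changes. None of 9 genes of the Tmed (p24) family, another set of cargo receptors, was called by edgeR, with 2 at an unadjusted p under 0.05 and 1 call by DESeq2, and their median was 0.01.

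Vesicles are caught by tethers at the Golgi and fuse through SNARE proteins. Of 42 such genes 40 had a negative log2 change, 6 fell and none rose, with a median of -0.29. Sec22b, a SNARE of ER-Golgi vesicles, went from 7154 and 7032 normalized counts to 4596 and 4045 (log2 change -0.71, edgeR adjusted p = 0.0167). Its partner Stx5a, the Golgi syntaxin, went from 2870 and 2806 to 1869 and 1882 (log2 change -0.60, edgeR adjusted p = 0.0258). The SNARE Bet1l had 1138 and 1228 against 774 and 775 (log2 change -0.61, edgeR adjusted p = 0.0271). The called tethers and stack proteins were the golgin Golga3 (log2 change -0.70), the stacking protein Gorasp2 (-0.64) and the COG complex subunit Cog6 (-0.61), with edgeR adjusted p-values of 0.0167, 0.0309 and 0.00882.

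**Figure D2:**
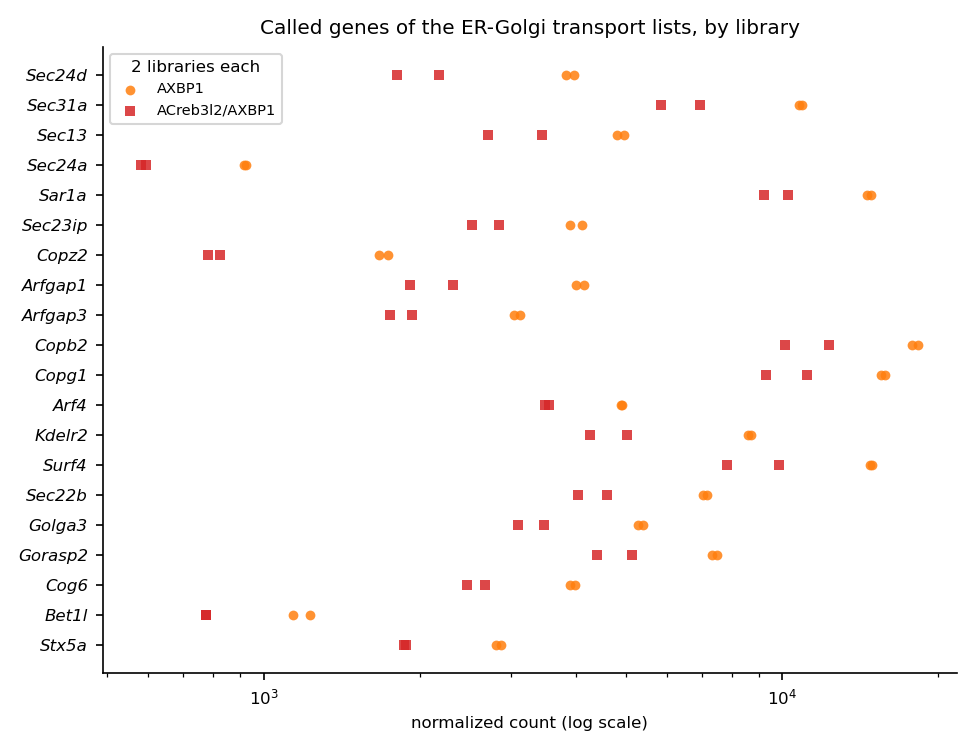
Normalized counts (horizontal axis, log scale) of the 20 called genes of the ER-Golgi transport lists, with 1 point per library. In each gene both ACreb3l2/AXBP1 libraries (squares) lie to the left of both AXBP1 libraries (circles), which lie close together.

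Across these 4 lists 20 of 94 genes fell, or 21.3%, against 0.616% of all genes tested. The lists were chosen with earlier results of these data known, so their shares are a description and no test. With the Tmed (p24) family added it was 20 of 103, or 19.4%. Of the 94 genes 82 had a negative log2 change, with a median of -0.30, and in 80.9% the libraries did not overlap and were lower, beside 24.0% of all genes tested. With library size alone as the scaling 12 were called and 73 of the 94 changes were negative and with the deposited FPKM values 5 and 71. No gene of the 4 lists was called without AXBP1 replicate 1, without AXBP1 replicate 2 or without ACreb3l2/AXBP1 replicate 2, while 84, 83 and 81 of the changes were negative in these fits.

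Other genes shape and process cargo inside the ER. Of 28 chaperones and cochaperones Fkbp9 and Fkbp14 fell, both peptidyl-prolyl isomerases of the ER lumen. Fkbp9 had 8534 and 9283 normalized counts in AXBP1 and 5247 and 5202 in ACreb3l2/AXBP1 (log2 change -0.77, SE 0.0883, edgeR adjusted p = 0.00566), and Fkbp14 had 3845 and 3752 against 2451 and 2627 (log2 change -0.58, edgeR adjusted p = 0.0174). Hspa5, the main ER chaperone BiP and a standard readout of ER stress, had 61410 and 64820 against 72070 and 53950, so that the groups overlapped (log2 change -0.00, SE 0.144, edgeR adjusted p = 0.994). The chaperone list had a median of -0.14, and of -0.03 without ACreb3l2/AXBP1 replicate 2.

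Of 19 protein disulfide isomerases 1 fell, Txndc5, from 9901 and 9598 normalized counts to 7141 and 6437 (log2 change -0.52, edgeR adjusted p = 0.0365). P4hb, with the most counts of them, had 29540 and 31610 against 23650 and 18910 and was not called (log2 change -0.52, edgeR adjusted p = 0.131), and Tmx4, another of the most counted, had a log2 change of 0.13. For entry into the ER and attachment of sugar chains, 2 of 50 genes fell. These were Stt3a, a catalytic subunit of the oligosaccharyltransferase (log2 change -0.52, edgeR adjusted p = 0.0337), and Alg5, which makes a sugar donor for that chain (log2 change -0.56, edgeR adjusted p = 0.0329). The list median was -0.21, and 41 of the 50 changes were negative.

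None of the 30 genes of ER-associated degradation, which disposes of misfolded proteins, was called by edgeR, although 28 had negative changes, 24 did not overlap and were lower (24.0% of all genes tested) and 8 had an unadjusted p under 0.05, with a median of -0.15. DESeq2 called 2 of them. Os9, a lectin of this pathway, had 10960 and 11160 normalized counts in AXBP1 against 10220 and 8832 (log2 change -0.22, edgeR adjusted p = 0.506). Enzymes that start mucin-type sugar chains gave no call in edgeR or DESeq2 among 17 genes, and their median was -0.05, with 1 gene under an unadjusted p of 0.05.

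**Figure D3:**
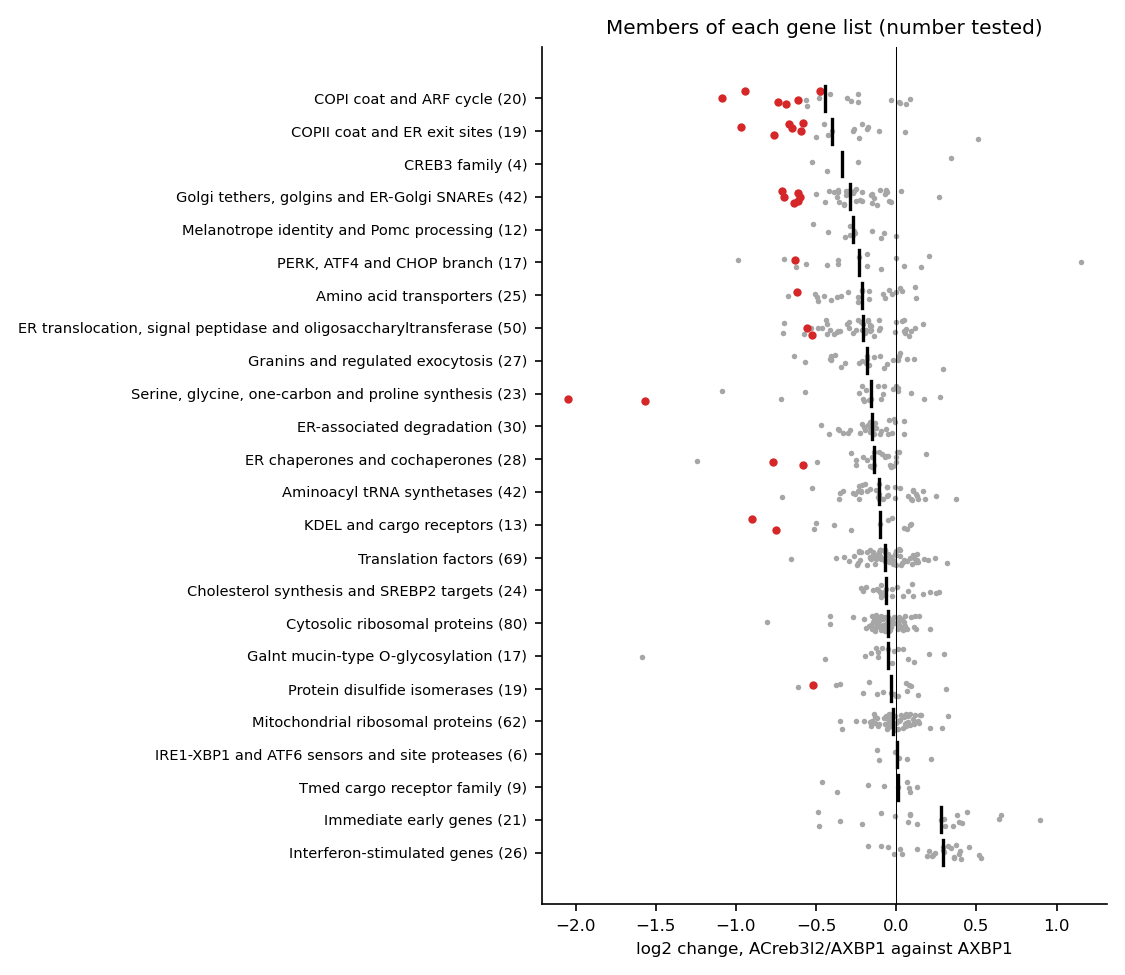
Log2 change in ACreb3l2/AXBP1 against AXBP1 (horizontal axis) of each member of 24 gene lists, with the number tested in parentheses. Red points are called genes and black bars are list medians, which lie from -0.44 for the COPI list to 0.29 for the interferon list.

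ER stress also acts through the kinase PERK and the transcription factors ATF4 and CHOP. Of 17 genes of this branch 1 fell, Eif2ak3, which encodes PERK itself, from 2855 and 2834 normalized counts to 1945 and 1734 (log2 change -0.63, SE 0.0901, edgeR adjusted p = 0.0151). Atf4 had 4669 and 4598 against 3461 and 2816 and narrowly missed the threshold (log2 change -0.56, SE 0.106, edgeR adjusted p = 0.0526). Cebpg, a partner of ATF4 and one of the most counted genes of the list, had 2415 and 2420 against 2329 and 2500 (log2 change -0.00, edgeR adjusted p = 0.993). The list median was -0.23, and 4 of the 17 changes were positive, up to 1.15. In edgeR 7 of the 17 had an unadjusted p under 0.05. DESeq2 called 3, and edgeR without the filter on low counts 6. None of the 6 genes for the other stress sensors and site proteases, Xbp1 among them, was called by edgeR or DESeq2, none had an unadjusted p under 0.05, and their median was 0.01.

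A pair of mitochondrial biosynthetic enzymes had the largest falls among the called genes of the pathway lists. Pycr1 (chr11:120635712-120643769, minus strand), which makes proline, had 611 and 548 normalized counts in AXBP1 and 176 and 106 in ACreb3l2/AXBP1, or 4.14-fold less (log2 change -2.05, SE 0.306, edgeR adjusted p = 0.0375). Aldh1l2 (chr10:83487450-83534140, minus strand), a mitochondrial folate dehydrogenase, had 311 and 230 against 93.8 and 88.6, or 2.97-fold less (log2 change -1.57, SE 0.198, edgeR adjusted p = 0.00788). They were the 2 called genes of 23 for serine, glycine, one-carbon and proline synthesis, whose median was -0.16. The other enzymes of that list named here were chosen after their values were seen: Mthfd2 had 1541 and 1087 against 837 and 761 and was not called (log2 change -0.72, edgeR adjusted p = 0.356), and Phgdh and Psat1 had log2 changes of -0.20 and -0.21.

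Of 25 amino acid transporters 1 fell, Slc38a10, from 8467 and 8529 normalized counts to 5914 and 5143 (log2 change -0.62, edgeR adjusted p = 0.0327). The list median was -0.22. Of 24 genes of cholesterol synthesis and SREBP2 none was called by edgeR or DESeq2 and none had an unadjusted p under 0.05, with a median of -0.07 that became 0.10 without ACreb3l2/AXBP1 replicate 2.

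Genes of the translation machinery follow. Translation factors (69 genes), cytosolic ribosomal proteins (80), mitochondrial ribosomal proteins (62) and aminoacyl tRNA synthetases (42), as listed with the study, had median log2 changes of -0.07, -0.05, -0.02 and -0.11. None of these 253 genes was called by edgeR, 18 had an unadjusted p under 0.05, and DESeq2 called 4. Without the filter on low counts edgeR called 8, in the 4 compared libraries alone 2, and at most 1 with a library left out. Eef2, the translocase of elongation, had 100400 and 105800 normalized counts against 89360 and 86340 (log2 change -0.23, edgeR adjusted p = 0.505). Eprs, a tRNA synthetase, had 13720 and 15540 against 9802 and 8046 but was not called (log2 change -0.71, edgeR adjusted p = 0.418). The other members with the most counts, Eef1a1, Rpl4, Rpl8, Mrpl17, Mrpl10 and Sars, had log2 changes of -0.17, -0.19, -0.05, -0.34, -0.05 and -0.36 and were not called. The median over the 253 genes was -0.05 with 169 negative changes, and it was -0.10 (178 negative) without ACreb3l2/AXBP1 replicate 1 and -0.01 (133 negative) without replicate 2. It was 0.05 with library size alone and 0.09 with FPKM, scalings under which the median of all genes was 0.10.

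The hormone and its processing enzymes were not called by edgeR or DESeq2, and 1 had an unadjusted p under 0.05, while edgeR without the filter on low counts called 2, Pomc and Pcsk2, and edgeR without ACreb3l2/AXBP1 replicate 1 called 1. The 12 melanotrope genes all had negative log2 changes, with a median of -0.27, but in 8 of them the libraries overlapped, and in the other 4 they were lower without overlap, which was so in 24.0% of all genes tested. The log2 change of Pomc was -0.52 (SE 0.252, edgeR adjusted p = 0.487), and Pcsk2, which cuts POMC, had 118300 and 128000 normalized counts against 114200 and 69120 (log2 change -0.43, edgeR adjusted p = 0.620). Tbx19, which encodes the POMC cell factor Tpit, had 13830 and 14980 against 14450 and 9590 (log2 change -0.26, edgeR adjusted p = 0.643). ACreb3l2/AXBP1 replicate 2 was the lowest of the 4 libraries in each of these genes, and without it the list median was 0.02. Of 27 genes of granules and regulated exocytosis none was called by edgeR, 7 had an unadjusted p under 0.05 and DESeq2 called 1, with a median of -0.18 that was -0.40 without ACreb3l2/AXBP1 replicate 1 and -0.05 without replicate 2. Chga and Scg2, the granins with the most counts, had log2 changes of -0.07 and -0.23.

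The 20 largest falls were led by genes of other kinds. Tnfrsf23, a decoy receptor of the TNF family, had 175 and 178 normalized counts in AXBP1 and 34.6 and 36.3 in ACreb3l2/AXBP1, 4.95-fold less (log2 change -2.31, SE 0.198, edgeR adjusted p = 0.00203). Rhd, a gene of the ammonium transporter family known from red cells, had 54.3 and 48.4 against 7.90 and 13.3 (log2 change -2.25, edgeR adjusted p = 0.0167). Hbb-bs, a globin gene and so a marker of red cells, had 14670 and 10740 against 11530 and 13880, with overlapping groups. Rcn3 (chr7:45082913-45092221, minus strand), a calcium-binding protein of the ER lumen, had the most counts of the 20 and went from 8635 and 9131 to 3158 and 2774 (log2 change -1.58, SE 0.147, edgeR adjusted p = 0.00347). Opposite-strand exons cover 16.9% of the exon length of Rcn3 and 14.1% of that of Aldh1l2.

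Fam114a1 and Cdr2 had the smallest adjusted p-values. Fam114a1 had 5275 and 5139 normalized counts in AXBP1 and 2248 and 2191 in ACreb3l2/AXBP1 (log2 change -1.23, SE 0.0886, edgeR adjusted p = 0.00102). Cdr2 had 2410 and 2541 against 1004 and 933 (log2 change -1.35, SE 0.104, edgeR adjusted p = 0.00102). With Tnfrsf23, Maged2 and Prrc1 they were the 5 genes called under every alternative, and the latter pair had log2 changes of -0.94 and -1.02. Others of the 20 were Tmem97, a sterol-regulated ER protein (log2 change -1.08), and Ung, a DNA repair glycosylase (-1.12). The largest fall among the called genes, in the ribosomal protein pseudogene Rpl34-ps1, went from 38.5 and 96.8 to 5.92 and 4.43 normalized counts (log2 change -3.67, edgeR adjusted p = 0.0317), and its reads may be shared with near-identical copies.

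**Figure D4:**
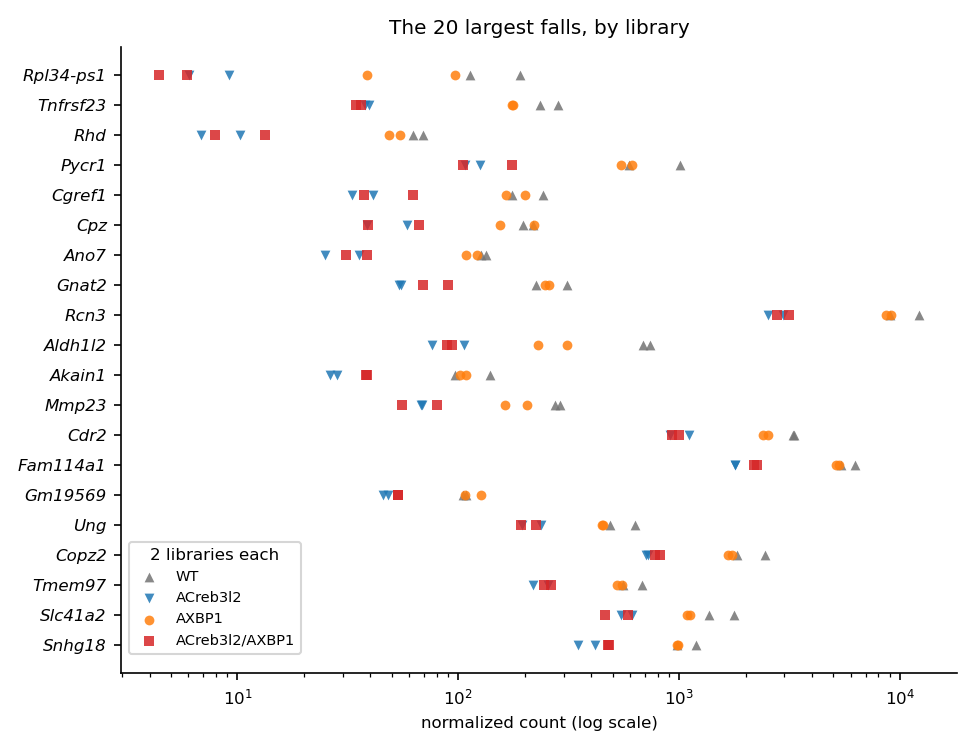
Normalized counts (horizontal axis, log scale) of the 20 genes with the largest falls in ACreb3l2/AXBP1 against AXBP1, with 1 point per library for all 4 groups. In each gene both ACreb3l2/AXBP1 libraries (squares) lie below both AXBP1 libraries (circles), and the ACreb3l2 libraries (triangles pointing down) lie near the squares.

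A few other called genes are named here after their values were seen, and Pgm3 among them is on the spermatogenesis list. Golt1b, a Golgi transport protein, had 6076 and 6199 normalized counts in AXBP1 and 3508 and 2964 in ACreb3l2/AXBP1 (log2 change -0.92, edgeR adjusted p = 0.00657). The Golgi GTPase Arl1 and the coat adaptor Gga2 had log2 changes of -0.42 and -0.69. The GDP-fucose transporter Slc35c1 fell by 0.90, the sulfate transporter Slc26a2 by 0.51, and Uap1 and Pgm3, which make the donor UDP-GlcNAc, by 0.54 and 0.52 on the log2 scale. Chpf2, which extends chondroitin chains, fell by 1.00, and 44.1% of its exon length overlaps a gene on the opposite strand, as does 28.3% of that of Pgm3.

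The only gene to rise was Hist1h4n, a gene of the histone H4 family, whose copies are alike and may share reads. Most histone mRNAs lack a poly(A) tail, and the sources differ on how RNA was selected. Hist1h4n had 668 and 706 normalized counts in AXBP1 and 1021 and 1448 in ACreb3l2/AXBP1 (log2 change 0.85, SE 0.154, edgeR adjusted p = 0.0461), and it was called in 4 of 15 alternatives. Interferon-stimulated genes gave no call in edgeR or DESeq2, although 7 of 26 had an unadjusted p under 0.05. Their median log2 change was 0.29, and 18 of the 26 did not overlap and were higher, beside 22.7% of all genes tested. Their normalized counts summed to 19922 and 19154 in the AXBP1 libraries, and to 22142 and 21301 with ACreb3l2 added. Of 21 immediate early genes 7 did not overlap and were higher. None of them was called by edgeR in the main fit, 1 passed an unadjusted p of 0.05 and DESeq2 called 1. With the replicate number as a block edgeR called 1, and in the 4 compared libraries alone 1. The median of the immediate early genes was 0.28, and 0.02 without ACreb3l2/AXBP1 replicate 1. The members with the most counts, Jund and Nr4a1, had log2 changes of -0.48 and 0.90, and 52.6% of the exon length of Jund overlaps a gene on the opposite strand.

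The same transgene was also measured without AXBP1, in ACreb3l2 against WT, which uses the other 4 libraries. There 389 genes were called lower (2.50%) and 84 higher (0.539%). All 96 genes that fell in ACreb3l2/AXBP1 against AXBP1 were among these 389, and they are 24.7% of them. The 2 comparisons share no library, but in 1 model they share the estimate of spread, so each was also fitted on its own 4 libraries, a choice made after seeing the data. Then 116 genes were lower in ACreb3l2/AXBP1 against AXBP1 and 240 in ACreb3l2 against WT, and 97 were in both, or 83.6% of the first and 40.4% of the second.

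Without AXBP1 the median log2 change of the 96 genes was -0.86, beside -0.74 with AXBP1 in both groups. The fall was the smaller with AXBP1 present in 90 of the 96 genes, and the test of that difference, the interaction, called none of all genes tested in edgeR, with 386 at an unadjusted p under 0.05 and 4 calls by DESeq2. Aldh1l2 had the clearest such difference among the 96 genes. Its levels were 741 and 685 in the WT libraries, 106 and 76.4 in the ACreb3l2 libraries, 311 and 230 in the AXBP1 libraries and 93.8 and 88.6 in those with both transgenes. Its interaction of 1.38 had an unadjusted p of 0.000548 from edgeR and an adjusted p of 1.00. In AXBP1 it was already below WT, while the ACreb3l2 and ACreb3l2/AXBP1 libraries overlapped.

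Fam114a1 had an interaction of 0.48, which edgeR gave an adjusted p of 1.00, and its levels were 5408 and 6268 in the WT libraries and 1787 and 1785 in the ACreb3l2 libraries. For Eif2ak3 the log2 changes were -0.63 with AXBP1 and -0.59 without, and for Txndc5 -0.52 and -0.53. The gene with the smallest interaction p was the pseudogene Rps26-ps1, at 340 and 272 normalized counts in AXBP1, 176 and 457 in both, 556 and 400 in WT but 12.02 and 6.85 in ACreb3l2. Its log2 change was thus 0.05 with AXBP1 and -5.60 without, with an edgeR adjusted p of 1.00 for the interaction, and near-identical copies may share its reads. Bpifa6 had the largest fitted interaction, but it rests on 2057 normalized counts in ACreb3l2 replicate 2 alone, with at most 46.1 in any other library.

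**Figure D5:**
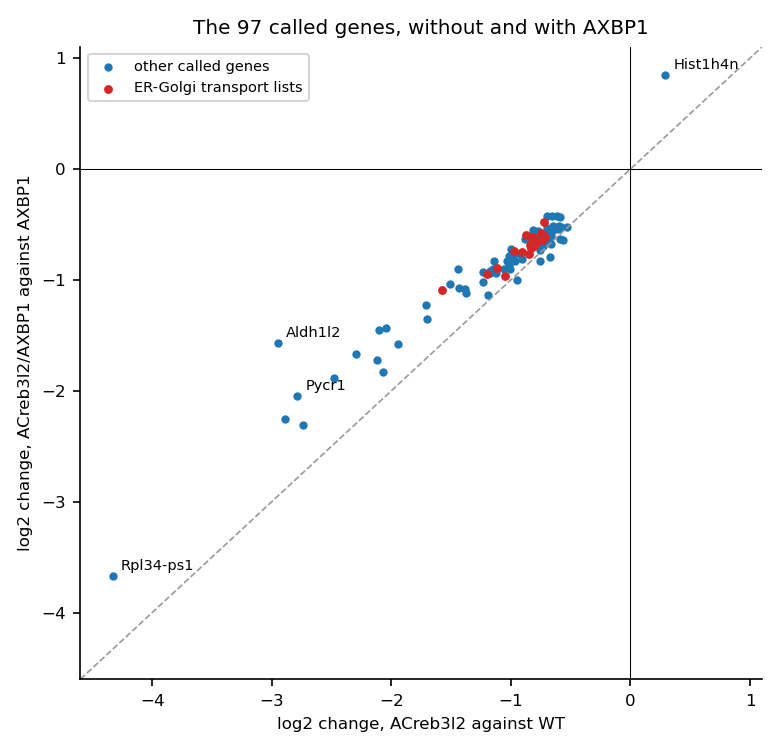
Log2 change of the 97 called genes in ACreb3l2/AXBP1 against AXBP1 (vertical axis) and in ACreb3l2 against WT (horizontal axis), with a dashed line where both are equal. All but 1 of the points lie in the lower left, and 90 of the 96 genes that fell lie above the line.

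In AXBP1 against WT none of the 96 genes was called by edgeR and their median log2 change was -0.19, with 90 of them negative. Over all genes that comparison gave 0 calls in edgeR, 1554 genes at an unadjusted p under 0.05 and 79 calls by DESeq2. Since these 96 genes were chosen for a difference from the AXBP1 libraries, this is a description of those libraries and no test.

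The study also lists genes that are lower or higher in lobes of Tpit knockout mice, measured on arrays of other animals. Of the 96 genes that fell 62 are on the lower list, or 64.6%, beside 9.13% of all genes tested. These 62 are 4.36% of the genes of that list that were tested. None of the 96 is on the higher list, which holds 5.92% of the genes tested. The lower list had a median log2 change of -0.16 over 1423 genes and the higher list 0.05 over 922, the latter becoming -0.01 without AXBP1 replicate 2 and -0.03 without ACreb3l2/AXBP1 replicate 2. Of 275 spermatogenesis genes, listed by the study as a contrast, 3 fell, Golga3, Sec23ip and Pgm3, beside 0.616% of all genes tested, and the median was 0.02.

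Markers of other cells gave no call in edgeR or DESeq2, with 4 of 11 anterior lobe, 3 of 13 pituicyte and 1 of 3 hypothalamic axon markers at an unadjusted p under 0.05. In the edgeR fit without the filter on low counts 7 of the 11 anterior lobe markers, 1 pituicyte marker and 1 fibroblast marker were called. Summed normalized counts of 13 pituicyte and glial markers were 47838 and 43393 in the AXBP1 libraries, against 46860 and 55721, and those of 12 endothelial, 11 fibroblast, 13 macrophage, 3 hypothalamic axon and 6 red cell markers also overlapped between the groups. The 11 anterior lobe markers did not, at 80756 and 84640 against 207187 and 106961, with none of them at 0. They summed to 155909 and 231038 in WT and 164908 and 125589 in ACreb3l2, all above the AXBP1 libraries. Most of this was Gh, growth hormone, at 49690 and 63570 against 164100 and 75460 (log2 change 1.08, edgeR adjusted p = 0.443), while Prl overlapped. The part of anterior lobe RNA in the falls was not tested. Leaving out ACreb3l2/AXBP1 replicate 1, the one of the 4 libraries with most Gh, does not remove the difference in Gh. Replicate 2, at 75460, was still above both AXBP1 libraries.

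Promoters of the genes that fell were searched for short sequences after the values were seen, and the counts are a description. Basic leucine zipper factors of the CREB3 and XBP1 type are known to bind elements around an ACGT core. RefSeq promoters on GRCm38.p6, from 250 bases before to 50 after a start, were given for 81 of the 96 genes and for 11169 of the genes tested. GACGTG, read on both strands as GACGTG or CACGTC, was in 38.5% of the 96 promoters of these genes and in 8.88% of all 14339 promoters. The overlapping letters ACGTGG were in 41.7% and 10.8%, and the ACGT core that both contain in 58.3% and 38.1%. For comparison CCAAT was in 40.6% and 37.0%, and TGATGNAA, an ATF4-type sequence, in 3.12% and 2.23%. Promoters of 1 gene can overlap, and by gene GACGTG was in 44.4% and 10.6%.

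The 8 stretches that follow are promoters of genes described above that hold GACGTG, from 100 bases before to 20 after the start, 5′ to 3′ on the gene's strand. Capitals mark GACGTG or its reverse complement. Stx5a has a further promoter without this sequence, which is not shown.
Sec24d, chr3:123267396-123267515, plus strand: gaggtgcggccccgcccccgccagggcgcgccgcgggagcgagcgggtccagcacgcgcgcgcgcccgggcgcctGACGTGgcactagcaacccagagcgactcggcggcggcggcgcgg
Sec13, chr6:113740662-113740781, minus strand: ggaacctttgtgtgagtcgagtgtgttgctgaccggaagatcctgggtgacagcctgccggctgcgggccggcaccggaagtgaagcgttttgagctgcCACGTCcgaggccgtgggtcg
Copb2, chr9:98563631-98563750, plus strand: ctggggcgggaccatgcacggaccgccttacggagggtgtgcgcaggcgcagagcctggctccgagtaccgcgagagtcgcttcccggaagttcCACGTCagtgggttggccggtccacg
Copg1, chr6:87887840-87887959, plus strand: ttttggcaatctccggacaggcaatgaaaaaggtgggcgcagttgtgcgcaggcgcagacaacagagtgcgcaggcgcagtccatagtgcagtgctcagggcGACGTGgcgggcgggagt
Arf4, chr14:26638034-26638153, plus strand: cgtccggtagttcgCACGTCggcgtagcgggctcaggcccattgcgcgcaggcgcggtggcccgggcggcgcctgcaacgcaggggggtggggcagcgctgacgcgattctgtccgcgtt
Stx5a, chr19:8741324-8741443, plus strand: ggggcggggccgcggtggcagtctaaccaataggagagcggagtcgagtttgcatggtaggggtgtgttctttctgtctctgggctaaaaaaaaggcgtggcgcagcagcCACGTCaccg
Golt1b, chr6:142387143-142387262, plus strand: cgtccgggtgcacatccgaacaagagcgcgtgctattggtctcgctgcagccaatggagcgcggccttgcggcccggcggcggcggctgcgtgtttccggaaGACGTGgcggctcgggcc
Rcn3, chr7:45092194-45092313, minus strand: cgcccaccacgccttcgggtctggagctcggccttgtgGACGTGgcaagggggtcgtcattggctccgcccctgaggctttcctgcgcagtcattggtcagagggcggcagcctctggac

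The first capital lies 25 bases before the start in Sec24d, 1 in Sec13, 6 in Copb2, 62 in Rcn3 and 86 in Arf4, and 2 after it in Copg1 and Golt1b and 10 in Stx5a. Over all sites in promoters of the genes that fell the median distance from the start was 37.0 bases, beside 74.0 for all promoters with the sequence. Of the 20 called transport genes 19 had a promoter in the table and 9 held GACGTG. The letters alone are common: the 1179 tested genes with GACGTG had a median log2 change of -0.05, beside 0.00 for those without. No binding was measured in these libraries.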

How the data were processed

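RNA-seq was analysed in 8 libraries of mouse neuro-intermediate lobe. The deposited counts are whole reads per Ensembl gene, which the authors made by trimming with Trimmomatic, aligning to mm10 with Tophat and counting with HTSeq (the submitters' processing notes also name DESeq). The study's software list gives a different aligner, and the annotation release and strand setting are not given in the sources used here. The deposited FPKM table, length- and depth-scaled by the authors, gave gene names and 1 alternative. Libraries were grouped by their labels.

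Genes with a mean normalized count above 20 entered 1 edgeR 4.0.16 fit (R 4.3.3, TMM, robust quasi-likelihood test, 1 mean per group, Benjamini-Hochberg adjustment), tested on simulated data. They held 99.9% of counts. The common biological coefficient of variation was 0.107. Replicates differed beyond sampling noise, as chi-squared over the degrees of freedom was 9.91 to 44.6. The 37 mitochondrial genes listed had 0 counts. Overlaps of exons and gene positions came from GENCODE M21 on mm10. Alternatives used DESeq2 1.42.0 and limma 3.58.1 (log2 of FPKM plus 1).

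Named genes were the 20 largest falls, the largest rises (up to 10) and the 10 highest counts among called genes, called list members, the 2 most abundant members of a list with fewer than 2 calls, and a few by name. Members and lists were chosen with earlier results of these data known. With 2 libraries per group no permutation test can reach 0.05, and none was run.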

Additional observations from a re-analysis of the deposited data

Results flagged for a closer look

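In 2 named genes every ACreb3l2/AXBP1 library lay on one side of the AXBP1 libraries and every ACreb3l2 library on the other side of the WT libraries. Srebf1, a sterol regulator, had a log2 change of -0.15 with AXBP1 in both groups and of 0.24 without. Nr4a1, an immediate early gene, had 0.90 and -0.78. In the main fit edgeR called none of these changes, and the interaction in neither gene. The change of Nr4a1 with AXBP1 in both groups was called in 2 of 15 alternatives.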

How the results depend on the processing

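The alternatives were DESeq2 size factors, library size alone, no filter on low counts, the DESeq2 test, limma on FPKM, the 4 compared libraries alone, the replicate number as a block, and each of the 8 libraries left out. DESeq2 size factors gave the same 97 calls. Calls in ACreb3l2/AXBP1 against AXBP1 (lower, higher) numbered 55 (55, 0) with library size alone, 755 (559, 196) without the filter, 287 (260, 27) in DESeq2, 32 (29, 3) with FPKM, 122 (116, 6) in the 4 compared libraries and 58 (57, 1) with the replicate block, and 7 to 155 (7 to 150, 0 to 10) with 1 library left out. Of the 97 calls 97 were kept without the filter and in DESeq2, 84 in the 4 libraries, 56 with the block, 52 with library size alone and 26 with FPKM. ACreb3l2 against WT gave 473 calls, and 304 with library size alone, 1455 without the filter, 755 in DESeq2, 270 with FPKM, 321 with the block, 275 in its own 4 libraries and 153 to 618 with 1 library left out. The interaction gave 0 calls, and 126 without the filter, 4 in DESeq2 and 0 to 2 with 1 library left out. Library size alone moved the median log2 change of all genes by 0.10. Nothing states that the replicate numbers pair samples. Deviations from group means correlated at 0.04 between AXBP1 and ACreb3l2/AXBP1. Over the pairs of groups they ran from -0.197 (WT with ACreb3l2/AXBP1) to 0.089 (WT with ACreb3l2). Whether samples of 1 number were handled together was not tested. With the block 11 of the 94 ER-Golgi transport genes were called, against 20 without it. In the fit without the filter 29547 genes were tested, many with few counts. There edgeR also called genes of lists with no call: 9 immediate early, 6 granule, 3 degradation, 2 Tmed, 1 interferon-stimulated and 1 mucin-type glycosylation gene. It also called 1 CREB3 family gene and 42 genes of the list that is higher in Tpit knockout lobes. The normalized counts of Rhd and Rpl34-ps1 were under 100 in the 4 compared libraries. The causes of these differences were not tested.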
